A study of Mus musculus with 14 samples.

Results

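The *Ms4a* family genes described here are *Ms4a4a*, *Ms4a4c*, *Ms4a6b*, *Ms4a6c*, *Ms4a6d* and *Ms4a7*. They were chosen as a list of symbols, matched to Ensembl identifiers through the gene annotation, and are 6 of the 33939 genes in the deposited table. All 6 were detected in each of the 14 libraries, and all 6 passed the filter on low values in each comparison. RNA was sequenced from CD11b+ microglia/macrophages, which were sorted with magnetic beads from mouse brain 3 days after a controlled cortical impact, a model of traumatic brain injury (TBI). The hemisphere with the lesion is called ipsilateral (IL) and the opposite one contralateral (CL).

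Ctrl mice, titled wildtype in the labels, had the genotype Cx3cr1-CreER+/-, and cKO mice had the genotype Cx3cr1-CreER+/-;Nhe1flox/flox. Both were male C57BL/6 mice of 8 to 12 weeks, both carried the Cre gene and both had been given tamoxifen, so the Ctrl mice differed from the cKO mice in the floxed alleles. The Cre is expressed from *Cx3cr1*, a gene of microglia that other brain macrophages and blood monocytes also use. Per the study's methods, injury followed a wait after tamoxifen that was meant to let blood monocytes be replaced. Each hemisphere had 4 libraries of Ctrl and 3 of cKO. They carry the numbers of 8 mice. Mice 3541, 3545, 3546 and 3551 (Ctrl) and 791 and 3592 (cKO) gave both hemispheres, mouse 788 gave a cKO CL library and mouse 784 a cKO IL library. No uninjured mice were analysed here.

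MS4A proteins (membrane-spanning 4-domain family, subfamily A) cross the membrane several times, with both ends in the cytoplasm, and many of them join receptor complexes in immune cells. The best known are *Ms4a1*, which encodes the B cell antigen CD20, and *Ms4a2*, which encodes the beta chain of the high-affinity IgE receptor of mast cells. Members of the Ms4a4, Ms4a6 and Ms4a7 branches are expressed by monocytes, macrophages and microglia. MS4A4A is known as a macrophage surface protein that associates with the receptor dectin-1, *Ms4a7* is used as a marker of border-associated macrophages, and the human *MS4A* region is known for its link to Alzheimer's disease and to the level of soluble TREM2.

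The family forms a cluster on mouse chromosome 19. In GRCm38, the build the authors mapped to, 19 protein-coding *Ms4a* genes lie between 10962293 and 11640851, and 15 of them are in the deposited table. The 6 genes described here lie between 11321039 and 11604849, which is 283.8 kb of the 678.6 kb of the cluster. *Ms4a7* (ENSMUSG00000024672, 11321039 to 11336146) and *Ms4a6d* (ENSMUSG00000024679, 11586604 to 11604849) are on the minus strand and stand at the ends of that stretch. Between them, on the plus strand, are *Ms4a4a* (ENSMUSG00000101389, 11375523 to 11392790), *Ms4a4c* (ENSMUSG00000024675, 11404770 to 11427246), *Ms4a6c* (ENSMUSG00000079419, 11469366 to 11482192) and *Ms4a6b* (ENSMUSG00000024677, 11516512 to 11531256).

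The RefSeq promoter windows of the GRCm38.p6 assembly hold 5 of the 6 genes. The windows of *Ms4a6b* and *Ms4a6c* are shown first because they share sequence, while their ratios of IL to CL within mice, given below, did not overlap in range. Each line gives the 250 bases before the annotated start, from 5′ to 3′ on the plus strand, at chr19:11518309-11518558 for *Ms4a6b* and chr19:11469118-11469367 for *Ms4a6c*. These are RefSeq starts, and the *Ms4a6b* window lies inside the span given above for that gene. Capitals mark the exact runs of at least 15 bases that both windows hold.
Ms4a6b: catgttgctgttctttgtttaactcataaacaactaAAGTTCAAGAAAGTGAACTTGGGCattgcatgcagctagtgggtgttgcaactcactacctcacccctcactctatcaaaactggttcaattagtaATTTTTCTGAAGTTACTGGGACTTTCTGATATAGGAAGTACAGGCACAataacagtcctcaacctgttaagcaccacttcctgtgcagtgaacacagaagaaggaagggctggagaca
Ms4a6c: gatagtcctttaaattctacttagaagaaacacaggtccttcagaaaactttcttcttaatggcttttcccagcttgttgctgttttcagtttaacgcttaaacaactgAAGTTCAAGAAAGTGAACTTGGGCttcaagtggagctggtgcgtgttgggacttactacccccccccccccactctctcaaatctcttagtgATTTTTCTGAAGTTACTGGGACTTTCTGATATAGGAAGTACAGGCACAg
The pair shared 2 such runs, the longer of 48 bases, and a local alignment of 182 bases with 83.5% identical positions. The other 9 pairs among the 5 genes had no alignment longer than 18 bases.

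The windows of *Ms4a4a* and *Ms4a4c* are shown because, of the 6 genes, they had the largest fitted genotype differences of each sign in the lesioned hemisphere, neither of which was called. They were chosen after their values were seen. They are at chr19:11375238-11375487 and chr19:11407411-11407660, also on the plus strand, and capitals mark matches to the NF-kB motif described next. The *Ms4a4c* window also lies inside the span given above for its gene.
Ms4a4a: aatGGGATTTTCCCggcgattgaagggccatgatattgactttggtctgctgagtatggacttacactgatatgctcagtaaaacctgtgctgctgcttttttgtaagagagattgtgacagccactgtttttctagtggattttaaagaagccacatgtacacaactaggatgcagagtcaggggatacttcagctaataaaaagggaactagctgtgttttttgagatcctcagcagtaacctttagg
Ms4a4c: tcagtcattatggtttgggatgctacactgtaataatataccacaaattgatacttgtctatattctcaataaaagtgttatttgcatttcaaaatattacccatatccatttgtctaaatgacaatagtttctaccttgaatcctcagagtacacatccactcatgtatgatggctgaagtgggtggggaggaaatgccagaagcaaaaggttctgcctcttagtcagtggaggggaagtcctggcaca
The 4 motifs chosen were searched on both strands of the windows of 300 bases, which add the 50 bases after the start. The NF-kB motif was found in *Ms4a4a*, from base -247, with a second match on the other strand that overlaps it, and in *Ms4a6c*, from base -189. It is held by 20.7% of the 32851 windows in the table. The AP-1 motif TGANTCA, held by 7.81% of all windows, was found at the second of the annotated starts of *Ms4a7*. The interferon-stimulated response element (3.44% of all windows) and the PU.1 motif GAGGAAGT (3.202%) were not found in these windows. These matches are descriptions of letters and were not tested against expression.

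Levels are in CPM, the reads of a gene per 1e+06 reads assigned to genes. Between genes, levels were compared as CPM per kb of annotated exon sequence.
*Ms4a6d* was the most abundant on that scale, with a mean in Ctrl of 82.0 ± 16.9 CPM per kb on the CL side and 200.2 ± 29.5 on the IL side (SD, n = 4), and in cKO of 68.0 ± 19.02 on the CL side and 168.3 ± 12.9 on the IL side (n = 3). Its lowest library lay above the highest library of each of the other 5 genes in each group. In Ctrl IL it was followed by *Ms4a6c* (51.5 ± 9.52), *Ms4a6b* (32.3 ± 2.94), *Ms4a4a* (29.6 ± 6.69), *Ms4a7* (18.6 ± 6.67) and *Ms4a4c* (9.62 ± 1.596). Of these neighbours, *Ms4a6b* and *Ms4a4a* overlapped in their libraries, as did *Ms4a4a* and *Ms4a7*.

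The order differed in the contralateral hemisphere. In Ctrl CL, *Ms4a6b* (23.2 ± 3.28 CPM per kb) and *Ms4a6c* (19.9 ± 0.98) followed *Ms4a6d* and overlapped, *Ms4a4a* (8.89 ± 1.37) and *Ms4a7* (7.26 ± 1.14) came next and overlapped, and *Ms4a4c* (3.73 ± 1.53) was lowest. In cKO CL, *Ms4a6b* (14.2 ± 2.69) overlapped with *Ms4a6c* (12.3 ± 7.501), and *Ms4a4a* (5.89 ± 4.26) overlapped with its neighbours *Ms4a7* (6.91 ± 2.26) and *Ms4a4c* (4.31 ± 0.91). There *Ms4a6c*, which ranged from 3.86 to 18.1 with mouse 788 lowest, also overlapped with *Ms4a7*, *Ms4a4a* and *Ms4a4c*. In cKO IL, *Ms4a6c* (47.0 ± 4.59) stood above *Ms4a6b* (24.1 ± 0.76), which overlapped with *Ms4a4a* (19.5 ± 4.49), and *Ms4a4a*, *Ms4a4c* (17.7 ± 5.20) and *Ms4a7* (17.0 ± 0.87) overlapped. The summed CPM of the 6 genes ranged from 295.8 to 393.7 in Ctrl CL, 636.9 to 866.5 in Ctrl IL, 177.8 to 324.7 in cKO CL and 591.0 to 634.4 in cKO IL.

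The first comparison, IL against CL, asked what differed between the injured and the opposite hemisphere at this time. Each of the 6 genes was higher in the IL libraries than in any CL library of the same genotype, with no overlap. Beside them, 6.26% of all genes tested were higher without overlap in Ctrl and 18.1% in cKO. Calls needed a limma p, adjusted by Benjamini-Hochberg, of no more than 0.05 together with a change of 1.2-fold or more. In Ctrl, 5 of the 6 genes were called higher, where 3.63% of all 16376 genes tested were called higher and 6.58% in either direction. In cKO, 6 of 6 were called higher, where 12.8% of 16758 were and 22.4% were called in either direction. Fold changes are on the log2(CPM + 1) scale, which understates the change of low genes.

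**Figure D1:**
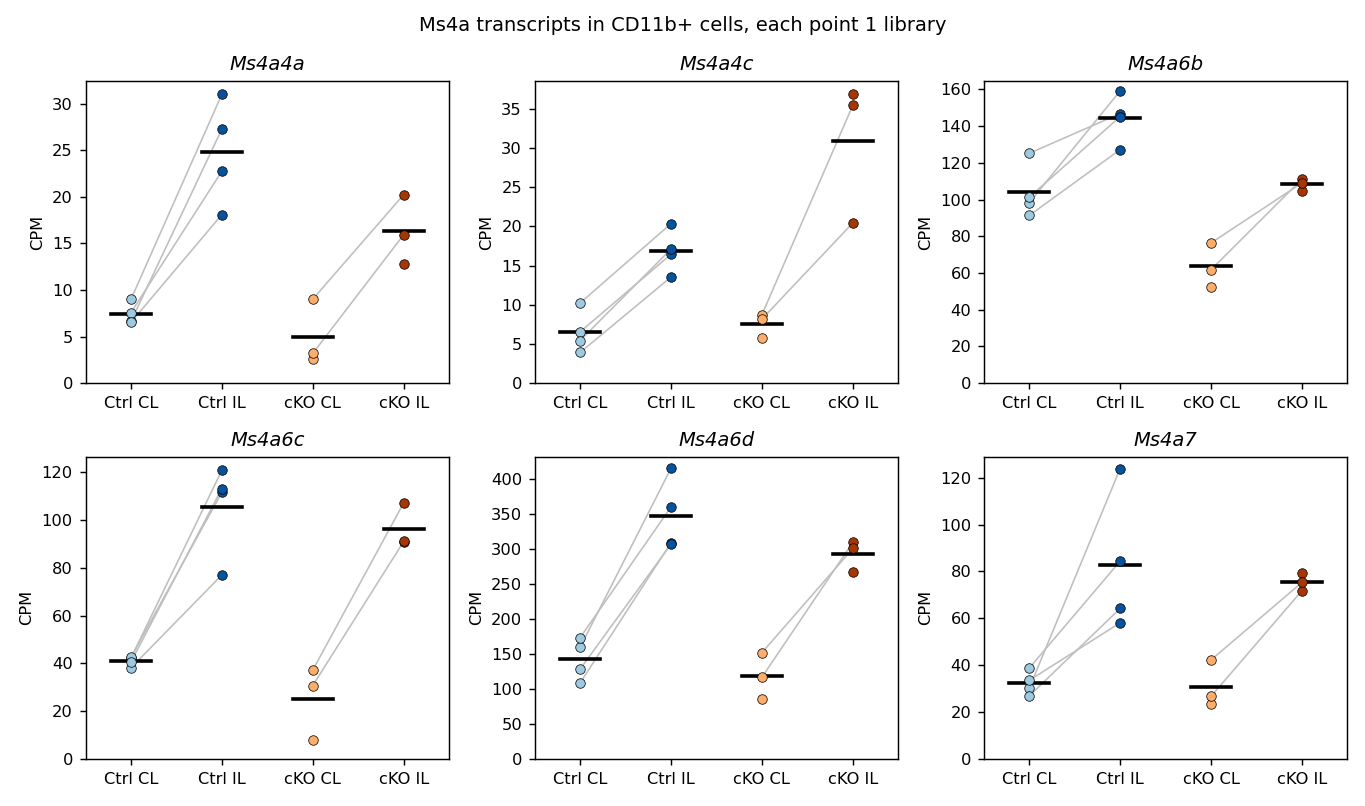
CPM of each *Ms4a* gene in each library (y axis, linear from 0) by group (x axis). Points are libraries, black bars are group means, and grey lines join the 2 hemispheres of a mouse. In each panel the IL points of a genotype lie above its CL points, and the cKO IL points of *Ms4a4c* (20.4 to 36.9 CPM) lie above the highest Ctrl IL point (20.3 CPM).

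*Ms4a4a*, the dectin-1 partner, had 6.64, 7.57, 9.001 and 6.53 CPM in Ctrl CL (mice 3541, 3545, 3546 and 3551, the order used for Ctrl throughout) and 27.3, 22.8, 31.0 and 18.1 CPM in Ctrl IL. In cKO CL it had 2.55, 3.202 and 9.02 CPM (mice 788, 791 and 3592) and in cKO IL 12.8, 15.9 and 20.2 CPM (mice 784, 791 and 3592). The lesioned side was higher in each genotype, and mouse 3592 was the highest of the cKO mice on both sides. The log2 fold change was 1.66 (SE 0.22, adjusted p = 0.00258) in Ctrl, the largest of the 6 genes there, and 1.76 (SE 0.35, adjusted p = 0.0115) in cKO.

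*Ms4a4c*, a gene of the same Ms4a4 branch whose product is less studied, had 10.2, 6.54, 5.44 and 3.92 CPM in Ctrl CL and 20.3, 16.4, 17.1 and 13.5 CPM in Ctrl IL. It had 5.73, 8.73 and 8.17 CPM in cKO CL and 36.9, 35.4 and 20.4 CPM in cKO IL. Here the cKO IL libraries of mice 784 and 791 were the highest of the series, and the CL libraries of the genotypes overlapped. The log2 fold change was 1.36 (SE 0.32, adjusted p = 0.0340) in Ctrl and 1.95 (SE 0.26, adjusted p = 0.00321) in cKO.

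*Ms4a6b* had the smallest fold change between hemispheres of the 6 genes. It had 98.3, 125.2, 101.3 and 91.4 CPM in Ctrl CL and 159.3, 146.9, 145.2 and 127.2 CPM in Ctrl IL. It had 52.5, 61.9 and 76.4 CPM in cKO CL and 104.6, 111.2 and 109.1 CPM in cKO IL. The highest Ctrl CL library (mouse 3545) came within a few CPM of the lowest Ctrl IL library (mouse 3551), and the cKO hemispheres were further apart. The cKO value on the log2 scale was 0.86 (SE 0.13, adjusted p = 0.00435), and the Ctrl value was 0.55 (SE 0.20) with an adjusted p of 0.148. With the mouse as a block, since its 2 hemispheres come from 1 animal, the Ctrl value had an adjusted p of 0.0101 and 6 of 6 genes were called in Ctrl, where 20.5% of all genes were. The same block left 6 of 6 called in cKO, beside 13.8% of all genes.

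*Ms4a6c* had 42.2, 42.5, 38.1 and 40.6 CPM in Ctrl CL and 120.8, 111.6, 77.0 and 113.1 CPM in Ctrl IL. It had 7.91, 30.7 and 37.2 CPM in cKO CL and 90.7, 91.0 and 107.1 CPM in cKO IL. The Ctrl CL libraries were close to each other, while the cKO CL library of mouse 788 was far below the other two. The log2 fold change was 1.402 (SE 0.22, adjusted p = 0.00604) in Ctrl and 2.22 (SE 0.45, adjusted p = 0.0116) in cKO. Without mouse 788 the cKO value was 1.59 (adjusted p = 0.00474).

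*Ms4a6d*, the most abundant, had 159.3, 173.1, 108.5 and 128.1 CPM in Ctrl CL and 414.9, 359.6, 308.5 and 306.6 CPM in Ctrl IL. It had 85.7, 116.6 and 151.7 CPM in cKO CL and 266.6, 309.0 and 300.5 CPM in cKO IL. The sides were well apart in both genotypes, and the genotypes overlapped on both sides. The log2 fold change was 1.37 (SE 0.26, adjusted p = 0.0134) in Ctrl and 1.42 (SE 0.18, adjusted p = 0.00255) in cKO. The share of *Ms4a6d* in the summed CPM of the 6 genes had a median of 43.5% in Ctrl CL and 48.2% in Ctrl IL, while in cKO it was 47.1% in CL and 47.5% in IL with overlapping libraries. The median share of *Ms4a6b* was 31.3% in Ctrl CL, 19.8% in Ctrl IL, 24.96% in cKO CL and 17.5% in cKO IL.

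*Ms4a7*, the border macrophage marker, had 30.2, 38.7, 33.5 and 26.9 CPM in Ctrl CL and 123.9, 84.4, 58.1 and 64.2 CPM in Ctrl IL. It had 23.4, 26.7 and 42.3 CPM in cKO CL and 79.5, 71.8 and 75.3 CPM in cKO IL. The Ctrl IL libraries were spread widely, with mouse 3541 highest, and the cKO IL libraries lay within the range of Ctrl IL. The log2 fold change was 1.35 (SE 0.31, adjusted p = 0.0318) in Ctrl and 1.396 (SE 0.19, adjusted p = 0.00301) in cKO.

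The count of 5 genes called in Ctrl rested on single libraries. It was 2 without the IL library of mouse 3541 or that of mouse 3545, 3 without the CL library of mouse 3546 or that of mouse 3551, 4 without the CL library of mouse 3541 or 3545 or the IL library of mouse 3551, and 5 without the IL library of mouse 3546, with each of the 6 fold changes still above 0. Over these 8 fits *Ms4a4c* lost its call in 6, *Ms4a7* in 5 and *Ms4a6d* in 2, while *Ms4a4a* and *Ms4a6c* kept theirs in 8. In cKO it was 6 without any 1 of the libraries. Within the 6 mice that gave both hemispheres, each gene was higher in IL than in CL in 6 of 6 mice, as were 10.1% of the 18476 genes tested over all libraries. The median ratio of IL to CL in these mice was 3.22 for *Ms4a4a* (range 2.24 to 4.98), 2.83 for *Ms4a4c* (1.99 to 4.06), 2.83 for *Ms4a6c* (2.02 to 2.96), 2.50 for *Ms4a6d* (1.98 to 2.84), 2.28 for *Ms4a7* (1.73 to 4.10) and 1.43 for *Ms4a6b* (1.17 to 1.80). The range of *Ms4a6b* did not overlap with those of *Ms4a4a*, *Ms4a4c*, *Ms4a6c* and *Ms4a6d*.

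**Figure D2:**
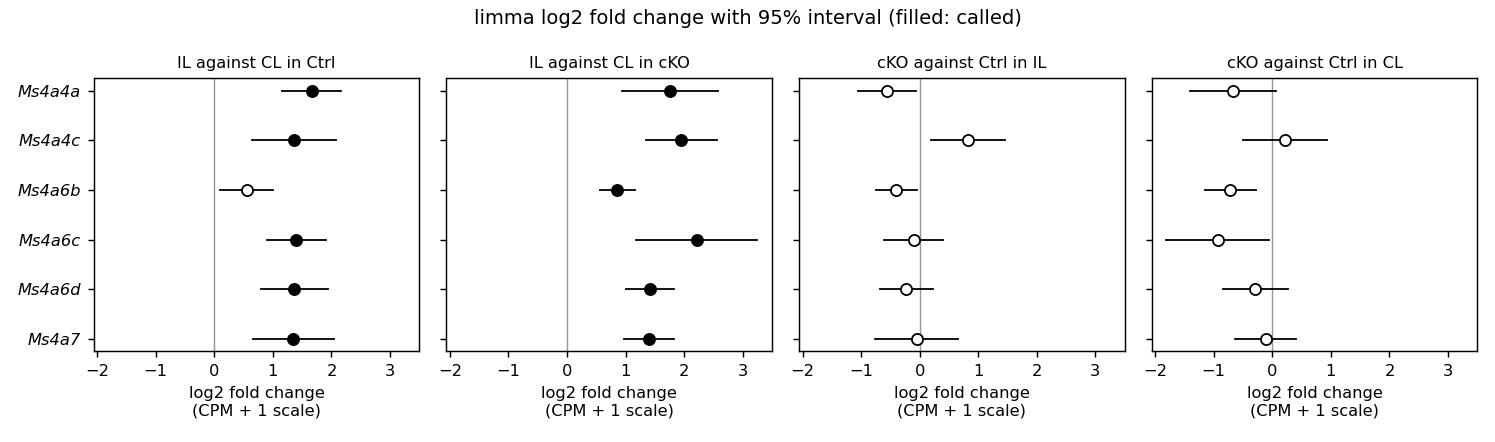
log2 fold change (x axis, CPM + 1 scale) of each *Ms4a* gene (y axis) in 4 comparisons, with the 95% interval from limma as a line. Filled circles were called. All are filled in the IL against CL panels except *Ms4a6b* in Ctrl (0.55), and none in the cKO against Ctrl panels.

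The second comparison, cKO against Ctrl, asked what differed between the genotypes in each hemisphere. None of the 6 genes was called in IL or in CL, where 0.658% and 0.875% of all genes were called. At an unadjusted p under 0.05 in limma, 1 of the 6 was higher and 2 were lower in IL, beside 5.08% and 3.82% of all genes, and 0 were higher and 2 lower in CL, beside 4.97% and 4.83% of all genes. The median log2 fold change of the 6 was -0.17 in IL and -0.48 in CL, and that of all genes 0.011 in IL and -0.055 in CL. These comparisons use the same Ctrl and cKO libraries as the comparisons between hemispheres above. Cell markers are given for them further below.

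In IL, *Ms4a4c* was the member with the higher level in cKO. Its 3 cKO libraries (20.4 to 36.9 CPM) lay above the 4 Ctrl libraries (13.5 to 20.3 CPM), with the nearest pair only just apart, and the log2 fold change was 0.82 (SE 0.28, 95% interval 0.19 to 1.45, adjusted p = 0.362). *Ms4a6b* lay the other way, with 104.6 to 111.2 CPM in cKO and 127.2 to 159.3 CPM in Ctrl, and a log2 fold change of -0.40 (SE 0.16, adjusted p = 0.477). The share of all genes without overlap was 4.85% higher and 5.48% lower in cKO. *Ms4a4a* had a log2 fold change of -0.56 (SE 0.22, 95% interval -1.06 to -0.062, adjusted p = 0.467) with overlapping libraries. *Ms4a6c* (-0.10, 95% interval -0.61 to 0.40), *Ms4a6d* (-0.23, -0.68 to 0.22) and *Ms4a7* (-0.053, -0.76 to 0.65) overlapped, and their intervals included 0.

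In CL, the genes that lay apart were both of the Ms4a6 branch. *Ms4a6b* had 52.5 to 76.4 CPM in cKO and 91.4 to 125.2 CPM in Ctrl, a log2 fold change of -0.72 (SE 0.20, 95% interval -1.15 to -0.28) that did not pass the adjustment (adjusted p = 0.177). *Ms4a6c* had 7.91 to 37.2 CPM in cKO and 38.1 to 42.5 CPM in Ctrl, a log2 fold change of -0.93 (SE 0.40, adjusted p = 0.468), and -0.30 (adjusted p = 0.883) without mouse 788. Lower values without overlap were seen in 6.04% of all genes. *Ms4a4a* (-0.67, SE 0.33, adjusted p = 0.554), *Ms4a4c* (0.22, SE 0.33, adjusted p = 0.853), *Ms4a6d* (-0.29, SE 0.25, adjusted p = 0.752) and *Ms4a7* (-0.11, SE 0.24, adjusted p = 0.897) overlapped between genotypes. The value of *Ms4a4a* was -0.40 without mouse 788 and -1.10 without mouse 3592, and that of *Ms4a6d* -0.11 and -0.46.

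An interaction term over the 14 libraries compared the genotype difference of IL with that of CL. None of the 6 genes was called, with an adjusted p of 0.99995 for each, and 0 of the 18476 genes tested were called, while 481 (2.60%) had an unadjusted p under 0.05 in limma. The interaction was 0.82 (SE 0.53) for *Ms4a6c*, and 0.18 without the CL library of mouse 788. It was 0.60 (SE 0.46) for *Ms4a4c*, with 0.34 without the CL library of mouse 3541 and 0.91 without the IL library of mouse 3592, and from 0.054 to 0.32 for the other 4 genes. Those of *Ms4a6d* and *Ms4a7* turned to below 0 under other scalings. That of *Ms4a4a* did so in 4 of the 14 fits with 1 library left out. No direction is therefore given for *Ms4a4a*, *Ms4a6d* and *Ms4a7*.

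Of the 9 other *Ms4a* genes of the cluster in the table, 5 passed the filter in Ctrl and 4 in cKO. In Ctrl 0 of 5 were called by limma, with 1 at an unadjusted p under 0.05, beside 6.58% of all genes called, and in cKO 1 of 4 was called, beside 22.4% of all genes. *Ms4a14*, the neighbour of *Ms4a7*, was higher in IL in cKO (log2 fold change 0.84, SE 0.21, adjusted p = 0.0251), with 5.12 to 8.47 CPM in cKO IL and 2.35 to 3.80 CPM in cKO CL. In Ctrl its log2 fold change was 0.997 (SE 0.28, adjusted p = 0.0656), and it was higher in IL in 6 of 6 mice. *Ms4a4b*, which lies between *Ms4a4c* and *Ms4a6c*, stayed at or under 1.63 CPM in the 14 libraries and its log2 fold change was 0.070 (SE 0.23) in Ctrl and 0.32 (SE 0.25) in cKO.

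**Figure D3:**
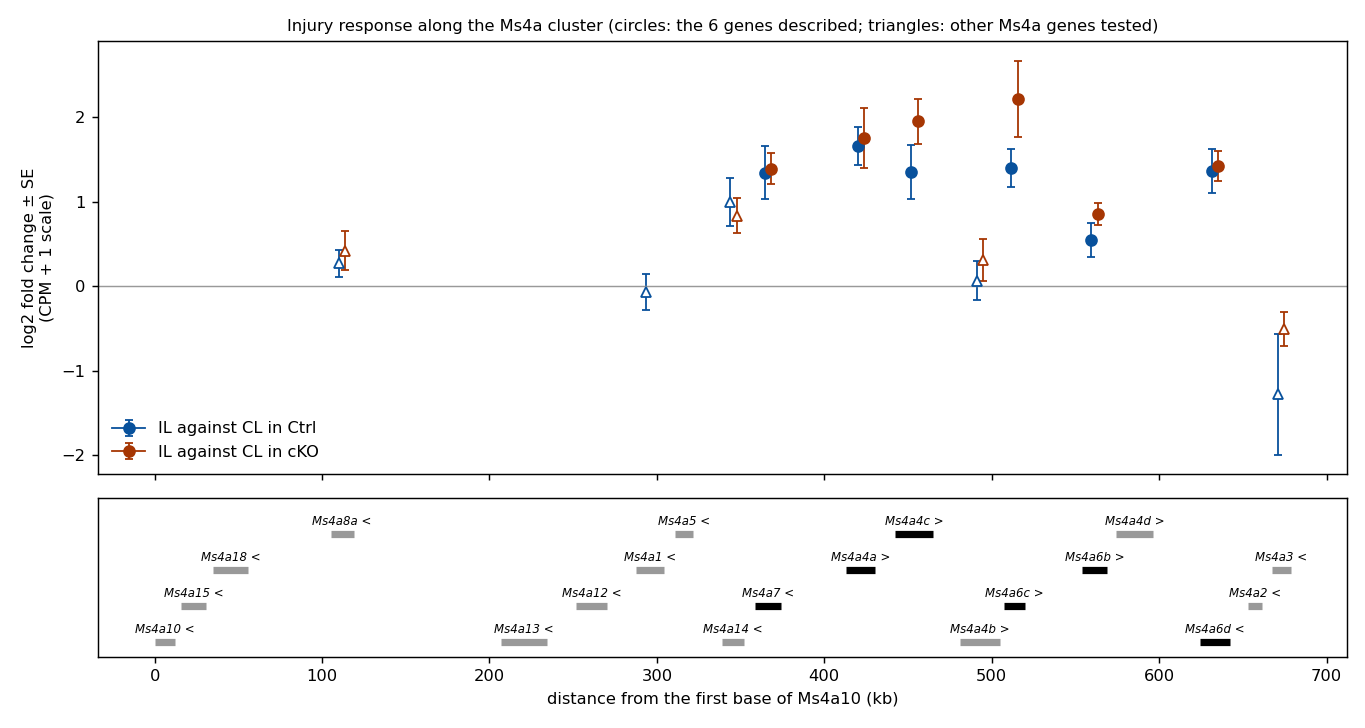
Upper panel, log2 fold change of IL against CL (y axis, CPM + 1 scale, bars are 1 SE) for each *Ms4a* gene tested, in Ctrl (blue) and cKO (brown), by its position in the cluster (x axis, kb from the first base of *Ms4a10*). Circles are the 6 genes described and triangles the other *Ms4a* genes, and the lower panel draws the 19 annotated genes with the direction of transcription. From *Ms4a14* to *Ms4a6d* the genes lie above 0, with *Ms4a4b* (0.070 and 0.32) nearest to it.

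*Ms4a1* and *Ms4a2*, the markers of B and mast cells in the family, stayed low. *Ms4a1* (CD20) was at most 0.88 CPM and *Ms4a2* at most 0.49 CPM in any library. *Ms4a3*, a gene of granulocyte and monocyte progenitors, was at 7.501 and 10.4 CPM in the Ctrl CL libraries of mice 3541 and 3546 and at or under 2.99 CPM in the other 12. *Tmem176a* and *Tmem176b*, are more distant relatives that lie outside the cluster. *Tmem176b* was called lower in IL in Ctrl (log2 fold change -0.70, SE 0.18, adjusted p = 0.0495) and in cKO (-0.64, SE 0.12, adjusted p = 0.0101), while *Tmem176a* was not called (-0.48, SE 0.22, adjusted p = 0.255 in Ctrl and -0.37, SE 0.14, adjusted p = 0.0917 in cKO). Both had less CPM in IL than in CL in 6 of 6 mice. Between genotypes *Tmem176b* was lower in cKO without overlap in both hemispheres. It was not called by limma (adjusted p = 0.288 in IL and 0.408 in CL). *Tmem176a* was also lower without overlap in IL, with 71.4 to 83.9 CPM in cKO and 85.7 to 123.1 CPM in Ctrl. Of all genes, 5.48% were lower in cKO without overlap in IL and 6.04% in CL.

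Of the 11 genes listed as tied to MS4A proteins, through TREM2 and Fc receptor signalling, 2 were called higher in IL in Ctrl and 0 lower, and in cKO 1 was called higher and 1 lower. That is 2 of 11 in each genotype, where 6.58% and 22.4% of all genes were called. In Ctrl these were *Apoe*, the lipid carrier that binds TREM2 (log2 fold change 1.70, SE 0.39, adjusted p = 0.0309), and *Clec7a*, which encodes dectin-1 (0.81, SE 0.16, adjusted p = 0.0179). In cKO *Apoe* had 0.97 (SE 0.37, adjusted p = 0.0923) and *Clec7a* 1.07 (SE 0.43, adjusted p = 0.109), which were not called. In cKO they were *Fcer1g*, the shared gamma chain of Fc receptors, higher (0.46, SE 0.10, adjusted p = 0.0155), and *Cd33*, an inhibitory receptor, lower (-0.56, SE 0.10, adjusted p = 0.00793). In Ctrl *Cd33* had -0.38 (SE 0.15, adjusted p = 0.168) and *Fcer1g* -0.13 (SE 0.56, adjusted p = 0.942). None of these 4 genes was called in the interaction. In Ctrl the IL library of mouse 3546 stood at 147.1 CPM of *Fcer1g* and 161.9 CPM of *Tyrobp*, its adaptor relative, against 738.8 to 866.7 and 801.1 to 972.6 CPM in the other 3 Ctrl IL libraries. Without that library the Ctrl value of *Fcer1g* was 0.54 (SE 0.24, adjusted p = 0.195). *Trem2* had a log2 fold change of -0.62 (SE 0.25, adjusted p = 0.189) in Ctrl and -0.37 (SE 0.18, adjusted p = 0.185) in cKO, and its IL libraries lay below its CL libraries in both. Without overlap, 2 of the 11 genes were higher and 2 lower in IL in Ctrl, and 1 higher and 3 lower in cKO. Beside them, 6.26% and 18.1% of all genes were higher without overlap, and the share that were lower is not given here. The median over the list was -0.063 in Ctrl and 0.074 in cKO, beside 1.36 and 1.59 for the 6 *Ms4a* genes and -0.038 and 0.019 for all genes. Between genotypes 0 of the 11 were called by limma, beside 0.658% of all genes in IL and 0.875% in CL. At an unadjusted p under 0.05 in limma, 1 was higher and 0 lower in IL, beside 5.08% and 3.82% of all genes. In CL 0 were higher or lower, beside 4.97% and 4.83%.

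Of 12 interferon response genes, 2 were called higher in IL in Ctrl (*Ifit2* and *Rsad2*) and 11 in cKO, where 3.63% and 12.8% of all genes were called higher. In Ctrl 12 of 12 had a fold change above 0 and 9 were higher at an unadjusted p under 0.05, beside 9.37% of all genes, and in the interaction 0 of 12 were called by limma, with 0 at an unadjusted p under 0.05. Of the 12 genes, 0 were called between genotypes in either hemisphere, with 8 higher in cKO at an unadjusted p under 0.05 in IL, beside 5.08% of all genes, and 1 lower in CL, beside 4.83%. *Ifit2*, an interferon-induced RNA-binding protein, had a log2 fold change of 1.55 (SE 0.40, adjusted p = 0.0480) in Ctrl and 2.24 (SE 0.53, adjusted p = 0.0195) in cKO. The summed CPM of the list was 218.9 to 537.8 in Ctrl CL, 520.8 to 887.6 in Ctrl IL, 205.0 to 565.8 in cKO CL and 768.3 to 1601 in cKO IL. Its median was highest in cKO IL (1255), as was that of *Ms4a4c* (35.4 CPM), and the IL libraries of the genotypes overlapped for the list.

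The 6 genes varied together over the 14 libraries. Pearson's r of their log2 values was between 0.60 and 0.96 for the 15 pairs, and after the group means were subtracted it was between 0.21 (*Ms4a4a* and *Ms4a4c*) and 0.92 (*Ms4a6b* and *Ms4a6d*), with a median of 0.62. These points share mice and library depth, and no p is given.

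The genes most like each member were taken as the 3 with the highest r among 9747 genes over the 14 libraries. *Ms4a4c* was closest to *Ifi209* (r = 0.98), *Il1rn* (0.98) and *Zbp1* (0.96), of which *Ifi209* and *Zbp1* are known as interferon-induced and *Il1rn* encodes the interleukin-1 receptor antagonist. *Ms4a6d* was closest to *Mpp1* (0.98), *Clec4d* (0.98) and *Gm13509* (0.98), of which *Clec4d* encodes a C-type lectin receptor of myeloid cells. *Ms4a7* was closest to *Arl8a* (0.97), *Mbd2* (0.97) and *Nagk* (0.97), and *Arl8a* encodes a small GTPase of lysosomes. *Ms4a4a* was closest to *Dnase1l1* (0.97), *Mfsd6* (0.97) and *Stom* (0.97), *Ms4a6b* to *Jdp2* (0.96), *Ifi207* (0.95) and *Mindy1* (0.94), and *Ms4a6c* to *Pgd* (0.95), *Pdlim7* (0.94) and *AB124611* (0.93). After the group means were subtracted, these r ranged from 0.79 to 0.95.

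Markers of the cells in the sort also moved with the hemisphere. In bulk RNA, fewer cells of a type and less RNA per cell cannot be told apart. Of 10 microglia markers, 7 were called lower in IL in Ctrl (2.96% of all genes) and 6 in cKO (9.52%), and their summed CPM was 32494 to 40143 in Ctrl CL, 18908 to 20456 in Ctrl IL, 30369 to 34143 in cKO CL and 17791 to 20262 in cKO IL. Of 8 markers of infiltrating monocytes, 3 (*Ccr2*, *Fn1* and *Vcan*) were called higher in IL in Ctrl (3.63% of all genes) and 4 (*Fn1*, *Plac8*, *S100a4* and *Vcan*) in cKO (12.8%). Their summed CPM was 127.1 to 747.3 in Ctrl CL, 580.4 to 866.0 in Ctrl IL, 115.5 to 326.3 in cKO CL and 540.9 to 777.9 in cKO IL, so that the hemispheres overlapped in Ctrl, where mouse 3541 had 747.3 in CL and 586.6 in IL. The sum was higher in IL in 5 of 6 mice. No marker of either list was at 0 in any library. For cKO against Ctrl, the median log2 fold change of the microglia markers was 0.075 in IL and 0.0048 in CL, with 7 and 5 of 10 above 0. That of the monocyte markers was 0.17 in IL and -0.44 in CL, with 5 and 1 of 8 above 0. In limma 1 of them, *Olfml3*, was called lower in cKO in IL, beside 0.658% of all genes called, and 0 were called in CL, beside 0.875%. Their part in the *Ms4a* values was not tested.

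*Ms4a7* also marks border-associated macrophages. Of 8 other markers of these cells, 0 were called higher in IL in either genotype and 1, *Cbr2*, was called lower in Ctrl (log2 fold change -0.90, SE 0.24, adjusted p = 0.0496), and at an unadjusted p under 0.05 in limma 1 was higher and 4 lower in Ctrl, beside 9.37% and 11.8% of all genes, and 1 higher and 0 lower in cKO, beside 20.1% and 16.5%. The median log2 fold change of the 8 was -0.84 in Ctrl, with 3 of 8 above 0, and -0.088 in cKO, with 4 of 8 above 0. Their summed CPM was 360.1 to 810.3 in Ctrl CL, 480.2 to 1070 in Ctrl IL, 221.8 to 563.8 in cKO CL and 274.7 to 606.5 in cKO IL, so that the hemispheres overlapped in both genotypes. The sum was higher in IL within 5 of 6 mice, in contrast to the median over the markers in Ctrl. The markers named next were chosen after their values were seen. *Mrc1*, the mannose receptor, had a log2 fold change of -0.95 (SE 0.39, adjusted p = 0.188) in Ctrl and -0.69 (SE 0.33, adjusted p = 0.168) in cKO. *Pf4*, a chemokine, had 1.08 (SE 0.55, adjusted p = 0.306) and 1.24 (SE 0.50, adjusted p = 0.109). Its Ctrl IL library of mouse 3546 was at 21.5 CPM against 95.6 to 132.4 CPM in the other 3, and without that library the Ctrl value was 1.74 (SE 0.23, adjusted p = 0.00166), which was called. *Stab1*, a scavenger receptor, had 0.95 (SE 0.31, adjusted p = 0.105) and 0.62 (SE 0.29, adjusted p = 0.169). The part of these cells in the *Ms4a7* values was not tested. The 6 neutrophil markers summed to 330.3 to 3524 CPM in Ctrl CL and 69.7 to 562.5 CPM in Ctrl IL, which overlapped, while the sum was lower in IL in 6 of 6 mice. In Ctrl 0 were called by limma, with 5 lower in IL at an unadjusted p under 0.05, beside 11.8% of all genes. In cKO, where the sums were 248.1 to 784.7 CPM in CL and 120.9 to 186.9 CPM in IL, 4 of 6 were called lower in IL (*Camp*, *Ly6g*, *S100a8* and *S100a9*), beside 9.52% of all genes. For cKO against Ctrl, 0 markers of both lists were called, beside 0.658% of all genes in IL and 0.875% in CL. The border-associated macrophage median was -0.12 in IL and -0.62 in CL, with 0 of 8 above 0 in each. The neutrophil median was -0.22 in IL (2 of 6 above 0) and -1.48 in CL (0 of 6). At an unadjusted p under 0.05 in limma, 3 and 2 of them were lower in CL, beside 4.83% of all genes. In IL 1 and 0 were, beside 3.82%. Their part in the *Ms4a* values was not tested.

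**Figure D4:**
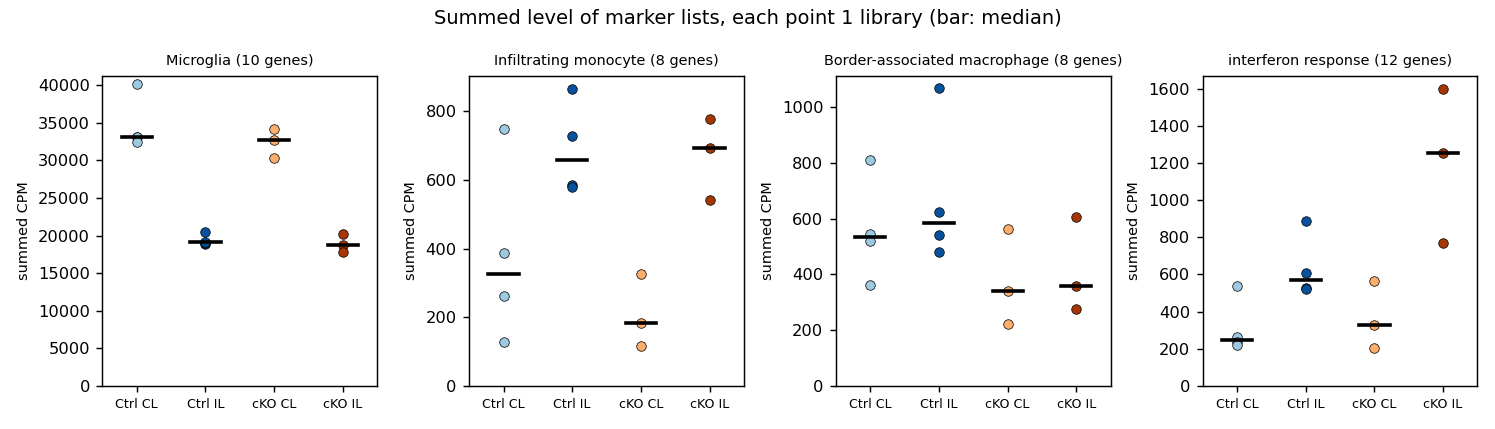
Summed CPM (y axis, linear from 0) of the microglia, infiltrating monocyte, border-associated macrophage and interferon response lists in each library (points) by group (x axis), with the group median as a bar. The microglia sums of IL (17791 to 20456) lie below those of CL (30369 to 40143), the monocyte sums of cKO IL lie above those of cKO CL while those of Ctrl overlap (CL 127.1 to 747.3, IL 580.4 to 866.0), and the border-associated macrophage sums overlap.

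Reads of these genes can be split with near copies. *Ms4a4c* and *Ms4a4b* transcripts share 571 bases at 92.1% identity, *Ms4a6b* and *Ms4a6d* share 448 bases at 92.4%, *Ms4a6b* and *Ms4a6c* 431 bases at 90.5%, and *Ms4a6c* and *Ms4a6d* 431 bases at 90.02%, so the division of reads within these sets is uncertain. At 90% identity or more, *Ms4a6c* also shares stretches of 127 to 267 bases with 35 genes that carry no *Ms4a* name, *Ms4a6d* 105 to 116 bases with 14, *Ms4a7* 103 to 109 bases with 13, *Ms4a6b* 284 bases with *Gm10212* and *Ms4a4c* 106 bases with *Gm8369*. Exons of *Ms4a4c*, *Ms4a6c* and *Ms4a6b* overlap the antisense genes *Gm5692*, *BE692007* and *Gm19261*, whose reads cannot be told apart without strand. *Gm5692* and *Gm19261* were at or under 0.24 CPM, and *BE692007* was between 0.41 and 10.7 CPM. The depth behind these values ranged from 12.2 to 41.6 M reads assigned to genes (1 M being 1e+06), with the lowest in Ctrl IL of mouse 3546.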

How the data were processed

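CD11b+ cells were sorted with magnetic beads, and Smart Seq v4 libraries were sequenced in pairs of reads. Per the labels and the study's methods, reads were aligned by the authors with STAR to mm10 and processed in Partek Flow 8.0. How reads were assigned to genes is not given in the sources used here. The deposited table is named raw counts, but its columns each add up to 1e+06, which makes the deposited values CPM. The library depth was read from the CPM worth of 1 read, and between 79.0% and 83.6% of the values under 100 reads were whole multiples of it within 0.03. Tests on whole counts were therefore not run. The deposited tables of the authors' own genotype comparisons hold a p-value, FDR, ratio, fold change and group means, and were not used. The level of the targeted gene is not reported here.

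CPM were divided by trimmed-mean-of-M-values factors (30% of M and 5% of A trimmed, no weights) and tested as log2(CPM + 1) with limma 3.58.1 (R 4.3.3), trend on, in the 2 groups compared or in all 14 libraries for the interaction. Genes entered with the CPM of 10 reads at median depth in a number of libraries equal to the smaller group, and 15 reads in all. Benjamini-Hochberg adjustment ran over all genes tested, and calls needed an adjusted p of no more than 0.05 with a 1.2-fold change. The procedure was tested on simulated data. Within a group each library is from a different mouse, and the p-values measure the spread between libraries within groups. The main fits between hemispheres and of the interaction treated the 2 libraries of a mouse as independent. The hemispheres of 1 mouse deviated together in the 6 mice with both (r from 0.18 to 0.61 across genes, against -0.54 to 0.50 for 19 other pairs), so a block by mouse number was an alternative.

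The genes named are the 6 members, the other *Ms4a* genes that passed the filter with *Tmem176a* and *Tmem176b*, genes of the partner, interferon and marker lists, and the 3 genes most like each member, taken from genes with a mean log2 value above 3. Marker lists of neutrophils, dendritic, T and NK, B and mast cells, oligodendrocytes, astrocytes, neurons and endothelium were summed too. The members and the lists were chosen with earlier results of these data known. Gene names and positions came from GENCODE M21 (GRCm38) and promoter windows from RefSeq (GRCm38.p6), and 33802 identifiers matched a symbol. Similar transcripts were found with blastn, at 90% identity over 100 bases. Alternatives were pseudocounts of 0.5 and 0.1, 3 other scalings, 2 other filters, all 14 libraries in a fit, the mouse as a random effect and each library left out. Python 3.11.15 with pandas 2.3.3 did the other steps.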

Additional observations from a re-analysis of the deposited data

Results flagged for a closer look

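In 36 sets of 4 Ctrl libraries, a library was marked when its gap to the nearest other, as a share of the range, passed Dixon's 95% limit, which chance gives for about 1 set in 20. No CPM of the 6 *Ms4a* genes was marked. *Ms4a3* was 2.99 CPM in Ctrl IL of mouse 3541, with the other 3 Ctrl IL libraries between 0.029 and 0.41 CPM. The interferon list summed to 537.8 CPM in Ctrl CL of mouse 3541, against 218.9 to 262.1 in the other 3, and that library also had the highest Ctrl CL value of *Ms4a4c*. The microglia list summed to 40143 CPM in Ctrl CL of mouse 3545, against 32494 to 33104, and to 20456 CPM in Ctrl IL of the same mouse, against 18908 to 19105. That mouse had the highest Ctrl CL value of *Ms4a6b*, *Ms4a6c*, *Ms4a6d* and *Ms4a7*.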

How the results depend on the processing

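The fold changes of the 6 genes between IL and CL kept their direction under all alternatives run. With IL against CL in cKO, 6 of 6 genes were called in each. In Ctrl, 5 genes were called, 3 with no filter beyond 1 read in total, which tests more genes, and 2 to 5 with 1 library left out. The mouse block gave 6 of 6 in Ctrl, adding *Ms4a6b* (adjusted p = 0.0101), and 6 of 6 in cKO, where mice 784 and 788 add nothing to it. It raised the genes called over the whole table from 1078 to 3358 in Ctrl and lowered them from 3746 to 2310 in cKO, and changed no other call of the 6 genes. All 14 libraries in a single fit and the mouse as a random effect also called *Ms4a6b* in Ctrl (adjusted p = 0.0452 and 0.00357).

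Between genotypes and in the interaction, 0 of the 6 genes were called under each alternative. Interactions turned to -0.041 for *Ms4a6d* and -0.043 for *Ms4a7* with upper-quartile scaling, to -0.011 and -0.014 with median-ratio scaling, and to -0.015 for *Ms4a7* with the mouse as a random effect. With 1 library left out, the interaction ranged from -0.18 to 0.55 for *Ms4a4a*, -0.13 to 0.25 for *Ms4a6d* and -0.17 to 0.29 for *Ms4a7*. The cKO against Ctrl values then ranged from -0.31 to 0.013 for *Ms4a6c* and -0.27 to 0.21 for *Ms4a7* in IL, and from -0.00093 to 0.48 for *Ms4a4c* and -0.33 to 0.031 for *Ms4a7* in CL. Without the IL library of mouse 3546, an alternative chosen after seeing the data, *Fcer1g* turned to 0.54 and *Tyrobp* to 0.37 in Ctrl, and *Pf4* was called (1.74). The cause was not tested. Over all genes, the calls ranged from 487 to 4258 in Ctrl and from 1391 to 3851 in cKO between hemispheres, from 46 to 284 in IL and from 70 to 290 in CL between genotypes, and from 0 to 3 for the interaction. Groups of 3 and 4 libraries limit the genotype comparisons.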

Other observations

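Other cells of the sort left low levels of their markers. The 6 T and NK cell markers summed to at most 7.78 CPM in any library, the 4 mast cell markers to at most 7.69 CPM, the 4 neuron markers to at most 2.62 CPM and the 4 B cell markers to at most 43.0 CPM, while *Ms4a1* and *Ms4a2*, the B and mast cell genes of the family, were under 1 CPM. Endothelial (49.0 to 151.9 CPM), oligodendrocyte (78.7 to 184.2 CPM), astrocyte (103.7 to 209.5 CPM) and dendritic cell (13.4 to 62.7 CPM) markers were present throughout. Astrocyte sums were 191.8 to 209.5 CPM in Ctrl CL and 103.7 to 144.0 CPM in Ctrl IL, and 161.5 to 189.2 CPM in cKO CL and 108.7 to 148.5 CPM in cKO IL. The list was split, with *Gfap*, the filament protein of reactive astrocytes, called higher in IL (log2 fold change 1.85, SE 0.27, adjusted p = 0.00386 in Ctrl and 1.95, SE 0.31, adjusted p = 0.00518 in cKO by limma) and *Slc1a3*, a glutamate transporter, called lower (-1.16, SE 0.15, adjusted p = 0.00230 in Ctrl and -0.80, SE 0.18, adjusted p = 0.0158 in cKO).

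Among the Ms4a6 genes, the transcript pair with the longest alignment was *Ms4a6b* and *Ms4a6c* (1234 bases, 86.1% identical), followed by *Ms4a6b* with *Ms4a6d* (933 bases, 82.5%) and *Ms4a6c* with *Ms4a6d* (929 bases, 79.4%). *Ms4a4a* and *Ms4a4c* aligned over 266 bases (69.5%). Over the 14 libraries, after the group means were subtracted, the r was 0.62 for *Ms4a6b* with *Ms4a6c*, 0.92 for *Ms4a6b* with *Ms4a6d*, 0.72 for *Ms4a6c* with *Ms4a6d* and 0.21 for *Ms4a4a* with *Ms4a4c*.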
